A study of Mus musculus with 20 samples.

Results

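The immediate-early genes described here are Fos, Fosb, Jun, Junb, Jund, Egr1, Egr2, Ier2, Dusp1 and Atf3, taken by symbol from the table of depth-normalized read counts. All 10 were among its 24062 genes, and all 10 passed the filter on low values in every comparison. The RNA came from microglia of single male mice on the B6D2F1/J background, isolated from 1 whole brain each without pooling. The mThy1-α-synuclein mice carry an X-linked transgene in which the murine Thy-1 promoter, active mainly in neurons, drives human wild-type α-synuclein, and the controls were their wild-type littermates. At 7 months there were 6 transgenic and 4 wild-type mice, and at 10 months 5 of each. The brains were dissociated with an enzyme kit, freed of myelin and red blood cells, and passed over magnetic beads, described as CD11b beads in the study's methods and as IBA1 beads in the sample labels. The mice of an age were handled together from euthanasia to extraction, so age and handling cannot be told apart.

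Immediate-early genes are transcribed within minutes of a stimulus, without new protein synthesis, when kinases of the ERK, JNK and p38 families and calcium signals activate factors already bound at their promoters, such as the serum response factor with its Elk partners and CREB. Fos, FosB, Jun, JunB and JunD combine into the dimeric factor AP-1, Egr1 and Egr2 are zinc finger factors, and Dusp1 is a phosphatase that switches p38 and JNK off again. In microglia these genes respond to injury and to inflammatory signals in the living brain, and the same genes are known to be induced in cells that are digested out of tissue while warm. A level measured in isolated microglia therefore holds whatever was present in the brain together with whatever the isolation added.

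Between 33404096 and 77806399 reads were assigned to genes per mouse. The summed normalized count of 12 microglial markers was between 1898450 and 2480299 in every mouse, and no marker of that list was low. Of the 12, 1 was called higher in the transgenic mice at 7 months and 4 at 10 months, and 0 lower. For this and the marker lists below, 2.23% of all genes were called higher and 2.70% lower at 7 months. At 10 months these shares were 3.88% and 3.79%. Thy1 checked the genotype labels, at 919 ± 337 normalized counts (SD, n = 6) in transgenic and 39.2 ± 14.4 (SD, n = 4) in wild-type mice at 7 months, and at 1423 ± 263 (SD, n = 5) and 17.4 ± 8.80 (SD, n = 5) at 10 months. The 10 monocyte and neutrophil markers, led by S100a9, varied widely, with a sum that ranged from 47621 to 435999 within the transgenic group at 7 months alone. At 10 months that sum was between 75233 and 195787 in transgenic and between 160885 and 394342 in wild-type mice, and 3 of its 10 genes (Retnlg, Chil3 and Plac8) were called lower in the transgenic mice. Markers of border macrophages, led by Mrc1, summed to between 19568 and 25096 in transgenic and between 26491 and 36610 in wild-type mice at 10 months, with 4 of 8 called lower. Neuronal markers summed to between 795 and 1226 in transgenic and between 1689 and 2590 in wild-type mice at 7 months, with 7 of 15 called lower. At that age the oligodendrocyte sums (7907 to 10357 in transgenic, 12953 to 18513 in wild-type mice) and the endothelial sums (3851 to 5639 and 6075 to 7375) did not overlap either. The astrocyte sums, led by Slc1a3, did overlap, at 9713 to 12506 in transgenic and 9299 to 12304 in wild-type mice. Of the 10 astrocyte markers, 5 were called lower and 1 higher. Lymphocyte markers had low sums that overlapped at 10 months, at 598 to 816 in transgenic and 705 to 1088 in wild-type mice. Of the 5 tested at that age, 2 were called lower. The part of these cells in the results below was not tested. In bulk RNA, fewer cells of a type and less RNA per cell cannot be told apart.

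All of the immediate-early genes were expressed at substantial levels. Per kilobase of exon, the mean over the 4 groups was highest for Fos, at 4383 normalized counts, followed by Jund (3561), Junb (2901), Jun (2763), Atf3 (2271), Dusp1 (1456), Egr1 (844), Ier2 (688), Fosb (240) and Egr2 (126). This order held between most neighbours in most mice: Fos exceeded Jund in 16 of 20 mice, Dusp1 exceeded Egr1 in 18, Egr1 exceeded Ier2 in 15 and Fosb exceeded Egr2 in 18. The weakest step was that from Junb to Jun, with Junb the higher in 13 of 20 mice. In mm10, Fos lies on chromosome 12 from 85473890 to 85477273 and its closest relative Fosb on chromosome 7 from 19302696 to 19310051. Junb, Jund and Ier2 all lie on chromosome 8, where Ier2 spans 84661331 to 84662852 and Junb 84974484 to 84978718. Exons of Jun, Junb, Jund and Dusp1 share bases with genes on the opposite strand (Junos, Prdx2, Gm11175 and Ergic1), and since no source used here states whether the counting used strand, the values of these 4 genes are uncertain to that extent.

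**Figure D1:**
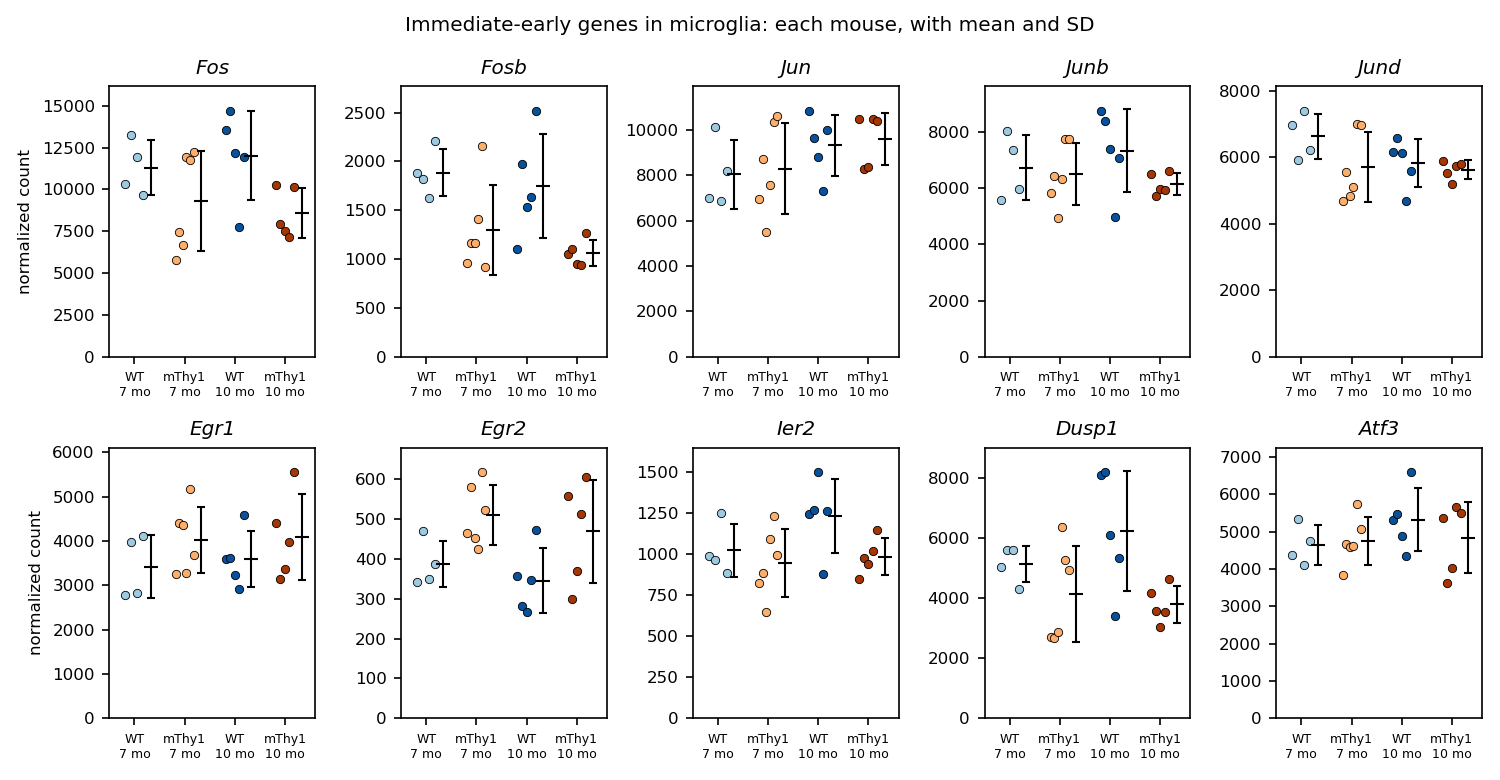
Normalized read counts (y axes, each from 0) of the 10 immediate-early genes in wild-type (WT) and mThy1-α-synuclein (mThy1) mice of 7 and 10 months (x axes). Each dot is 1 mouse and the bars are the mean and SD of a group; Fosb sits lower in most transgenic mice at both ages, and Fos and Dusp1 fall into a low and a high set of 3 transgenic mice each at 7 months.

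Whether the transgene was accompanied by a different level of these genes at 7 months was asked first. None of the 10 passed the test at 7 months (adjusted p 0.114 to 0.960, limma with Benjamini-Hochberg adjustment over 13887 genes), where 4.93% of all genes tested did. edgeR and DESeq2 on the recovered reads also called 0 of the 10. At an unadjusted p under 0.05 there were 2 of the 10, Fosb on the lower and Egr2 on the higher side, and 21.3% of all genes tested. No member separated the genotypes without overlap, against 7.53% of all genes tested. The median log2 fold change of the 10 genes was -0.091, that of all genes 0.00093.

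Fosb, whose protein pairs with Jun proteins in AP-1, had the largest difference at 7 months. Its normalized count in the 4 wild-type mice was 1881, 1818, 1627 and 2207, and in the 6 transgenic mice the lowest, median and highest were 922, 1167 and 2157. Of the 6 transgenic mice, 5 lay below every wild-type mouse, and replicate 5 lay close to the highest of them. The log2 fold change was -0.59 (95% interval -1.07 to -0.12, adjusted p = 0.143), and without that replicate it was -0.75 with an adjusted p of 0.00499. That mouse was singled out by its Fosb value, so the smaller p follows in part from the choice. Fosb was not called at 7 months without any other 1 mouse.

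Egr2, a zinc finger factor of the Egr family, stood on the other side. It measured 342, 470, 350 and 386 in the wild-type mice, while the transgenic mice ran from 426 through a median of 492 to 617. In 3 of 4 wild-type mice it was below every transgenic mouse. The log2 fold change was 0.39 (95% interval 0.099 to 0.69, adjusted p = 0.114). Egr1, its close relative, differed by 0.24 (95% interval -0.11 to 0.58, adjusted p = 0.422).

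Fos, an AP-1 subunit, was measured at 10328, 13268, 11951 and 9655 in the wild-type mice at 7 months. The transgenic replicates 1 to 3 were at 5766, 7440 and 6706 and replicates 4 to 6 at 11953, 11739 and 12225, so that 3 of these mice lay below all wild-type mice and the others within their range. Dusp1 divided the same mice into the same low and high sets, at 2714, 2680 and 2867 in replicates 1 to 3 and 6354, 5284 and 4945 in replicates 4 to 6. The wild-type mice were at 5025, 5586, 5586 and 4313, so that transgenic replicate 4 lay above all of them. The summed monocyte and neutrophil markers divided the transgenic mice too, at 75360, 74374 and 47621 in replicates 1 to 3 and 270191, 435999 and 245514 in replicates 4 to 6. In wild-type replicate 4 the sum was 77216, while Fos was at 9655 and Dusp1 at 4313, above transgenic replicates 1 to 3. The log2 fold changes, -0.34 for Fos (95% interval -0.89 to 0.22) and -0.39 for Dusp1 (95% interval -1.03 to 0.25), were smaller than the spread between the transgenic mice (adjusted p = 0.474 and 0.466). The remaining members had log2 fold changes from -0.23 (Jund) to 0.028 (Atf3).

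At 10 months 1 of the 10 genes passed the limma test, Fosb, which was lower in the transgenic mice. Of all 13627 genes tested, 7.67% were called, and 3.79% were called lower. On the recovered reads edgeR called 1 of the 10, while DESeq2 called 3, Fosb, Fos (adjusted p = 0.0173) and Dusp1 (adjusted p = 0.0231), and 12.4% of all genes. Fos, Fosb, Ier2 and Dusp1 had an unadjusted p under 0.05, all on the lower side, as did 23.5% of all genes in either direction. The median log2 fold change of the 10 genes was -0.19, with 7 of them below 0, where 50.5% of all genes tested were below 0. As at 7 months, no member separated the genotypes without overlap, against 7.27% of all genes.

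Fosb measured 1054, 1104, 953, 942 and 1269 in the 5 transgenic mice at 10 months. In the wild-type mice it measured 1099, 1970, 1529, 1636 and 2520, so that 4 of 5 lay above every transgenic mouse and replicate 1 lay among them. The log2 fold change was -0.67 (95% interval -1.07 to -0.27, adjusted p = 0.0474), which is 0.628 of the wild-type level. This call was close to the threshold. It was lost without any 1 of 9 mice, with adjusted p from 0.0594 to 0.105, and held only without wild-type replicate 1, the mouse that overlapped the transgenic group, at 0.00101.

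Dusp1 measured 4155, 3570, 3039, 3536 and 4651 in the transgenic mice at 10 months and 8093, 8192, 6098, 3419 and 5319 in the wild-type mice. Wild-type replicate 4 lay below 4 of the 5 transgenic mice, and the other wild-type mice lay above all of them. The log2 fold change was -0.66 (95% interval -1.19 to -0.14, adjusted p = 0.124). In Fos, too, 4 wild-type mice lay above all transgenic mice and replicate 4 among them, with 10282, 7921, 7505, 7161 and 10147 in transgenic and 13543, 14714, 12170, 7736 and 11947 in wild-type mice, and a log2 fold change of -0.47 (95% interval -0.84 to -0.092, adjusted p = 0.126). Ier2, a small nuclear protein of early responses, differed by -0.31 (95% interval -0.58 to -0.041, adjusted p = 0.150) and Junb by -0.23 (95% interval -0.50 to 0.041, adjusted p = 0.296). Wild-type replicate 4 was the lowest of its group in Fos, Jun, Junb, Jund, Egr1, Ier2, Dusp1 and Atf3. Its summed monocyte and neutrophil markers, at 160885, were also the lowest of the group, beside 249745 to 394342 in the other wild-type mice. Without replicate 4 the genes called at 10 months were 4 of the 10, against 9.06% of all genes in that fit. They were Fos at -0.62 (adjusted p = 0.00606), Dusp1 at -0.86 (0.00525), Junb at -0.36 (0.0129) and Ier2 at -0.42 (0.0181), while Fosb was at -0.68 (0.0638). Fos, Dusp1, Junb and Ier2 were not called by limma without any other 1 mouse. Since replicate 4 was singled out by its values in these genes, the fit without it is no separate support for a difference.

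Egr2 again stood on the higher side at 10 months, at 558, 299, 370, 513 and 604 in transgenic and 356, 281, 267, 347 and 473 in wild-type mice. Of the transgenic mice 3 of 5 lay above every wild-type mouse, and 2 of 5 wild-type mice lay below every transgenic mouse. The log2 fold change was 0.42 (95% interval -0.0091 to 0.86, adjusted p = 0.223). Jun, Jund, Egr1 and Atf3 had log2 fold changes between -0.15 and 0.18 and intervals that included 0.

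The mean of the genotype effects at the 2 ages was added after the values had been seen. For Fosb it was -0.63 (95% interval -0.95 to -0.31, adjusted p = 0.0193), 0.645 of the wild-type level. Fosb was the only member called in this contrast, in which 6.92% of 14457 genes were called. At an unadjusted p under 0.05 there were 4 of the 10 and 23.4% of all genes. Egr2 just missed the threshold at 0.41 (95% interval 0.15 to 0.67, adjusted p = 0.0516), and its adjusted p ranged from 0.0168 to 0.110 over the alternatives. Dusp1 was at -0.53 (95% interval -0.93 to -0.12, adjusted p = 0.104) and Fos at -0.40 (95% interval -0.73 to -0.070, adjusted p = 0.133). No genotype effect on a member was shown to differ between the ages: 0 of 10 passed that test by limma, edgeR or DESeq2, where 6.36% of all genes were called by limma. At an unadjusted p under 0.05 by limma there were also 0 of the 10, against 21.9% of all genes. The differences ran from -0.27 for Dusp1 (95% interval -1.08 to 0.53) to 0.19 for Jund (95% interval -0.13 to 0.51). Intervals of this width leave room for a difference between the ages in either direction.

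**Figure D2:**
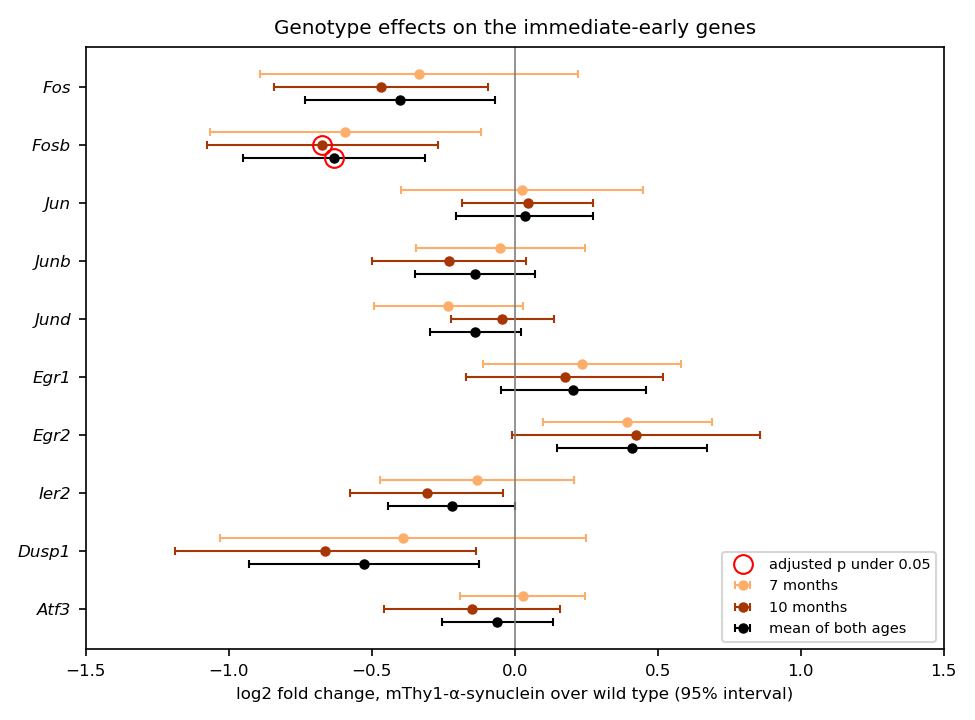
Log2 fold change of mThy1-α-synuclein over wild-type mice (x axis) with 95% intervals for each immediate-early gene (y axis) at 7 months, at 10 months and as the mean of both ages. Red circles mark the values with an adjusted p under 0.05, which were those of Fosb at 10 months (-0.67) and in the mean (-0.63).

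From 7 to 10 months none of the 10 genes passed the limma test in either genotype, on counts rescaled jointly over the 20 mice, and edgeR and DESeq2 called 0 as well. In wild-type mice, where 9.97% of all genes were called, 2 members had an unadjusted p under 0.05, as did 25.1% of all genes: Ier2 was 0.36 higher on the log2 scale at 10 months (95% interval 0.029 to 0.69, adjusted p = 0.159) and Atf3 0.29 higher (95% interval 0.0032 to 0.58, adjusted p = 0.194). In transgenic mice, where 0.906% were called and 12.7% had an unadjusted p under 0.05, the 1 such member was Jun, which was 0.35 higher (95% interval 0.024 to 0.67, adjusted p = 0.354). Fosb differed with age by -0.049 (95% interval -0.52 to 0.43) and -0.12 (95% interval -0.55 to 0.30) in the 2 genotypes.

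The spread between mice of 1 group was wider than that of the median gene for all members but Jund. The SD within groups on the log2 scale was 0.43 for Dusp1, 0.36 for both Fos and Fosb, 0.31 for Egr2, 0.29 for Egr1, 0.27 for Jun, 0.26 for Ier2, 0.24 for Junb, 0.23 for Atf3 and 0.19 for Jund, beside a median of 0.20 over all genes tested. Of all genes tested, 72.1% had an SD no larger than that of Dusp1, 68.4% than that of Fos and 45.6% than that of Jund. Single mice stood high or low in many members at once. All 10 genes were above their group mean in the transgenic replicate 5 of each age, and none was in transgenic replicate 1 at 7 months or transgenic replicate 3 at 10 months. Wild-type replicate 4 at 10 months had 1 gene above its group mean, Egr2.

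Covariation between mice was examined on deviations from the group means over the 20 mice. All 45 pairs of members had a Pearson r above 0, from 0.015 for Fosb with Junb to 0.93 for Fos with Dusp1, with a median of 0.50. Over 12 relations of Fos fixed together, 6 members passed a permutation test within groups: Dusp1 (r = 0.93, rho = 0.93, p = 1e-05, the smallest that the 100000 permutations can give, adjusted p = 0.00012), Junb (r = 0.82, rho = 0.79, adjusted p = 0.0006), Jund (r = 0.71, rho = 0.63), Ier2 (r = 0.68, rho = 0.64), Jun (r = 0.68, rho = 0.64; adjusted p = 0.02 for these last 3) and Atf3 (r = 0.54, rho = 0.49, adjusted p = 0.0324). By rho Atf3 did not pass (adjusted p = 0.0787). Without the 2 mice farthest from the median of Fos, transgenic replicate 1 at 7 months and wild-type replicate 4 at 10 months, r was 0.91 for Dusp1, 0.79 for Junb and 0.35 for Atf3. Within the ages, r of Fos with Dusp1 was 0.94 at 7 and 0.93 at 10 months.

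Atf3 was closer to the Egr genes than to Fos. Egr1, Egr2 and Atf3 had r of 0.78 to 0.82 with each other, while Egr1 and Egr2 had r of 0.17 and 0.047 with Dusp1. The r of Egr1 with Fos differed in size between the ages, at 0.088 at 7 and 0.60 at 10 months. Jun lay between these genes and those around Fos, at 0.81 with Junb and 0.73 with Atf3. Fosb followed neither closely: its r was 0.54 with Egr1, 0.26 with Fos (adjusted p = 0.450 in the family above) and 0.18 with Dusp1. The mean deviation of the 10 genes was followed most closely, among genes outside the set, by Csrnp1 (r = 0.89), Btg2 (0.88), Zfp36 (0.88), Stat4 (0.83) and Nr4a1 (0.82) over the 20 mice. Both genes of a pair were read from the same library of each mouse, and the mice of an age shared their handling. The r of pairs other than those of Fos are descriptions.

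**Figure D3:**
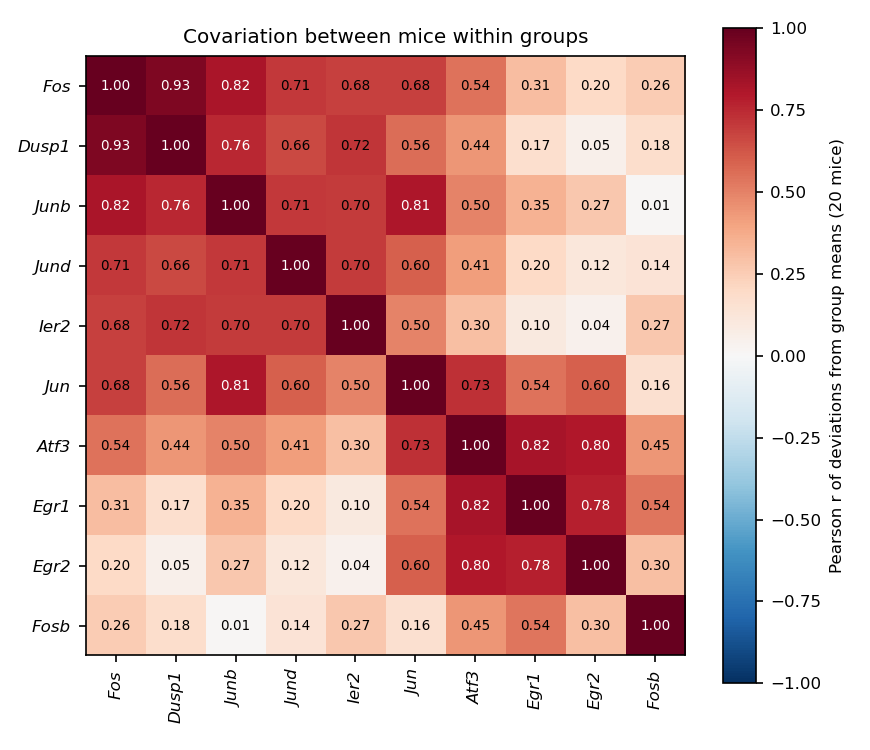
Pearson r between the immediate-early genes (both axes) over the deviations of 20 mice from their group means, coloured from -1 to 1 with the value in each cell. Fos, Dusp1, Junb, Jund, Ier2 and Jun form a block with r from 0.50 to 0.93, Atf3, Egr1 and Egr2 another with r from 0.78 to 0.82, and Fosb reaches at most 0.54.

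Promoter windows of 250 bases before the transcription start, from RefSeq on GRCm38.p6, were at hand for 8 of the 10 genes, and those of 4 genes are shown because they stand for the patterns above: Fos and Dusp1, the pair with the highest r, Egr2 from the genes around Egr1, and Fosb, the gene called between genotypes. Capitals mark TGACGT on either strand, the core of the cyclic AMP response element to which CREB and ATF proteins are known to bind, its full form TGACGTCA, and the CArG box, the element of serum response factor.
Fos, chr12:85473640-85473889, plus strand: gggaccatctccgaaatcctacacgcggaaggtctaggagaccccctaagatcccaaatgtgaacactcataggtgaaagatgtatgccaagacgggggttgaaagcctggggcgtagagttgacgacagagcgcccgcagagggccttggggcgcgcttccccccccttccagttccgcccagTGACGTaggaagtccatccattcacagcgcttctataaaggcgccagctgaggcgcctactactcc
Dusp1, chr17:26508473-26508722, minus strand: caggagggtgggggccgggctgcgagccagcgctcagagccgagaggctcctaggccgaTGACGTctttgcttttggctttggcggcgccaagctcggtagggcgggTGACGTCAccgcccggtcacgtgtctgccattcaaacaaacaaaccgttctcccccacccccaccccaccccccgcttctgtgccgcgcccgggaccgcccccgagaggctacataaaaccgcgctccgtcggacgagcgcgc
Egr2, chr10:67537619-67537868, plus strand: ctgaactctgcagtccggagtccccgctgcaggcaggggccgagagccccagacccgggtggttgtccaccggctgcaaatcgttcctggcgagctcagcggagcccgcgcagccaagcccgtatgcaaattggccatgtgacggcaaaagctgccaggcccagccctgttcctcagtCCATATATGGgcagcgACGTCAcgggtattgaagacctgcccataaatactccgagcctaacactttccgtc
Fosb, chr7:19310046-19310295, minus strand: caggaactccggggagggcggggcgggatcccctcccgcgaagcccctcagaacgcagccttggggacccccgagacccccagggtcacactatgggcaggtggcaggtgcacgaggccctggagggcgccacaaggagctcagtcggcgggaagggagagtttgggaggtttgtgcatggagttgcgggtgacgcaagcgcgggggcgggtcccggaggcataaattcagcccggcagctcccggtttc

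TGACGT on either strand was in the windows of 4 of the 8 genes (Fos, Dusp1, Egr2 and Atf3), and in those of 7.29% of all 27025 genes with a window. In Fos it began 66 bases before the start. In Dusp1 a match began 191 bases before it and a further one 143 bases before it, the latter within the full TGACGTCA, which reads the same on both strands and is in windows of 1.77% of all genes. Egr2, for which 5 windows were given, had a CArG box 72 bases and TGACGT on the minus strand 56 bases before the start in the window printed, and was the only 1 of the 8 genes with a CArG box, which windows of 1.62% of all genes hold. The AP-1 letters TGACTCA were in none of the 8 and in windows of 5.16% of all genes. The Fosb window holds none of these letters. Matches and their lack describe these windows only.

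Levels of several members moved with the monocyte and neutrophil markers. The mean deviation of that list had r = 0.79 with Fos (rho = 0.77, permutation p = 0.00173, adjusted p = 0.0075 in a family of 13, a relation added after the values were seen), 0.86 within 7 months and 0.67 within 10 months. As a description, r with the list was 0.77 for Ier2, 0.73 for Dusp1, 0.62 for Jund, 0.59 for Junb, 0.46 for Jun, 0.36 for Fosb, 0.33 for Atf3, 0.10 for Egr2 and 0.058 for Egr1. Within the ages it was 0.89 at 7 and 0.46 at 10 months for Dusp1, and -0.14 and 0.47 for Egr1. With the log2 of the marker sum as a covariate, likewise added afterwards, the genotype effect at 10 months was -0.024 for Fos (-0.47 without the covariate), -0.25 for Dusp1 (-0.66), -0.037 for Ier2 (-0.31), -0.49 for Fosb (-0.67), 0.54 for Egr2 (0.42) and 0.49 for Egr1 (0.18). None of the 10 was called in that fit, in which 32 of all genes were called, against 1045 without the covariate. With so few calls, a call lost in that fit says little about the gene. At 7 months the same fit gave -0.19 for Fos, -0.23 for Dusp1, -0.54 for Fosb and 0.41 for Egr2, and in the mean of both ages -0.53 for Fosb (adjusted p = 0.0925) and 0.45 for Egr2 (adjusted p = 0.0868). At 10 months the marker sums of the genotypes overlapped only between 160885 and 195787, so that genotype and marker sum are hard to tell apart in that fit.

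**Figure D4:**
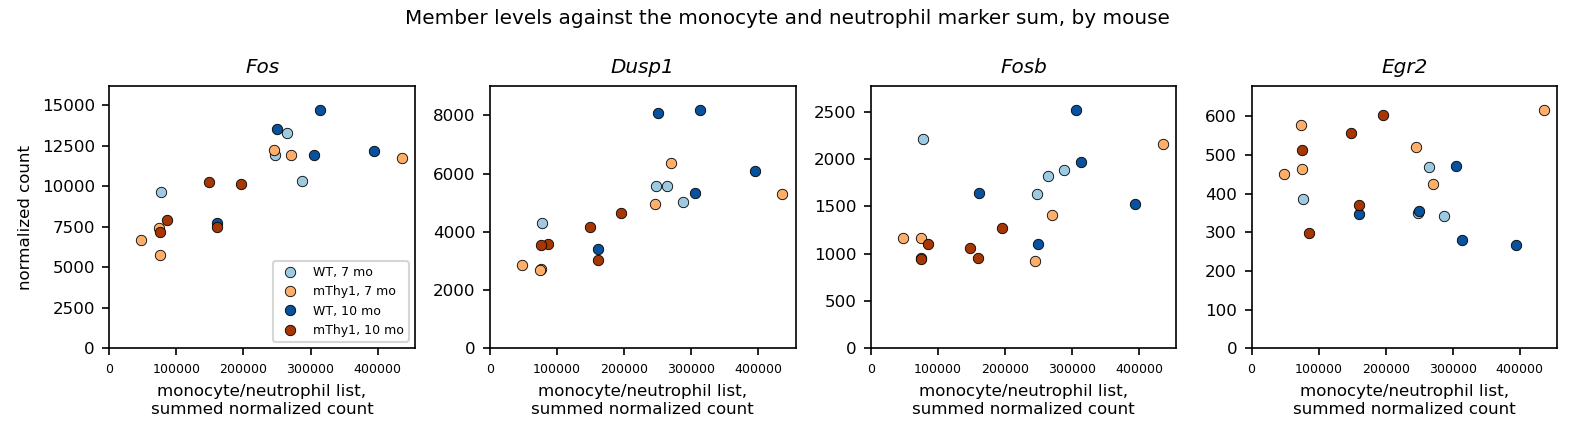
Normalized counts of Fos, Dusp1, Fosb and Egr2 (y axes, from 0) against the summed normalized count of 10 monocyte and neutrophil markers (x axes), 1 dot per mouse, coloured by genotype and age. Transgenic mice with the lowest sums lie low in Fos and Dusp1, while Egr2 shows no such layout.

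Beyond the 10 genes, other early response genes were called mostly lower in transgenic mice at 10 months. Of 39 tested, 12 were called lower and 0 higher, where 3.79% of all genes were called lower and 3.88% higher. Among the 12 were Ptgs2, which encodes cyclooxygenase-2, at -1.20 (adjusted p = 0.00332), the pseudokinase Trib1 at -0.64 (0.00156), and the transcription factors Nfil3 at -0.82 (0.0128) and Cebpd at -0.57 (0.0123). Gadd45b, a stress-induced gene, was at -0.62 (0.0135). Ptgs2 was lower in every transgenic than in every wild-type mouse, and 7.27% of all genes likewise did not overlap between the genotypes at 10 months. At 7 months 2 of 41 were called, near the 4.93% of all genes, and both were higher: Myc at 0.89 (adjusted p = 0.00183) and the clock gene Per1 at 0.55 (0.0143). Without transgenic replicate 4 these were 4 higher and 1 lower, and without wild-type replicate 1 they were 1 higher. The median of this list was -0.31 at 10 and -0.091 at 7 months. The count at 10 months fell to 7 without transgenic replicate 3 or wild-type replicates 1, 2 or 5. With the marker sum as a covariate it was 0, in a fit that called 32 of all genes.

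Of all genes, 4.93% were called at 7 months and 7.67% at 10 months, beside the counts of the 2 lists that follow. Among 13 other AP-1 partners, 2 were called lower at 10 months and 0 at 7 months (3 higher and 0 lower at an unadjusted p under 0.05, and 1 called by DESeq2, as 1 was without transgenic replicate 4). Fosl2, a further Fos family protein, was at -0.71 (adjusted p = 0.00898) and Jdp2, a Jun dimerization partner, at -0.63 (0.0117). Both separated the genotypes without overlap, as 7.27% of all genes did. Both calls were lost with the marker sum as a covariate, as were most calls of all genes (32 in that fit, 1045 without the covariate). Of 29 upstream kinases and factors, 1 was called higher (Creb1, 0.28) and 1 lower (Map2k7, -0.39) at 7 months, and 4 higher (Mkl2, Elk4, Rps6ka4 and Map2k7, 0.30 to 0.43) and 1 lower (Crem, -0.46) at 10 months. The count at 7 months fell to 1 without the filter on low values and without any 1 mouse but wild-type replicate 2. That at 10 months fell from 5 to 4 without transgenic replicate 4, to between 0 and 3 without any other mouse and to 1 without the filter. With the covariate it was 0, in the fit with 32 calls. Map2k7, an activator of JNK, was thus called in opposite directions at the 2 ages, with a difference between them of 0.68 (adjusted p = 0.00166). Srf, the serum response factor itself, was at -0.011 and -0.11 and did not pass. Neither of the Egr corepressors Nab1 and Nab2 was called by limma at either age, and 1 of them had an unadjusted p under 0.05 at 7 months and 0 at 10 months.

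Phosphatases related to Dusp1 were called at both ages, where 4.93% of all genes were called at 7 and 7.67% at 10 months. Of 9 tested, Dusp7 (1.39, adjusted p = 0.000313) and Dusp6 (0.78, adjusted p = 0.00589), both ERK phosphatases, were called higher at 7 months. At 10 months Dusp5 (-1.14, adjusted p = 0.00549) and Dusp6 (-0.46, adjusted p = 0.0128) were called lower. Neither was called with the covariate, where 32 of all genes were. Dusp5 had a like value at 7 months, -1.10 (adjusted p = 0.0779), where DESeq2 called 2 phosphatases lower. The Dusp6 effect differed between the ages by -1.24 (adjusted p = 0.000373).

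Since the dissociation of tissue is known to induce these genes, lists of heat shock and cytokine genes known from dissociated microglia were read beside them. The shares of all genes were 2.23% called higher at 7 months, and 3.88% higher and 3.79% lower at 10 months. Of 15 heat shock genes, 1 was called higher at 7 months, the endoplasmic chaperone Hspa5 (0.40, adjusted p = 0.0128), a call lost without wild-type replicate 1. At 10 months 6 were called lower, among them Hsph1 (-1.19), Dnaja1 (-0.74), Hspa5 (-0.69), Hsp90ab1 (-0.60) and Hspa8 (-0.52), with adjusted p from 0.0110 to 0.0456. Hspa1a and Hspa1b, the inducible Hsp70 genes, were at -0.55 and -0.49 at 7 months (adjusted p = 0.227 and 0.239) and at -0.26 each at 10 months (0.156 and 0.0979) and did not pass. The heat shock count fell to between 1 and 3 without any 1 transgenic mouse or without wild-type replicate 5. Of 19 cytokine and NF-κB response genes, none was called by limma at 7 months (6 higher and 0 lower at an unadjusted p under 0.05, and 2 called by DESeq2, 3 without transgenic replicate 4 and 1 each without transgenic replicate 1 and wild-type replicate 2), and at 10 months Cxcl2 (-1.20), Ccl7 (-1.39), Il1b (-1.40) and Cxcl1 (-1.14) were among 5 called lower, while Rgs1 (0.74) was called higher. This count fell from 6 to 3, 2 and 3 without wild-type replicates 1, 2 and 5. The heat shock and cytokine counts at 10 months were both 0 with the marker sum as a covariate, where 32 of all genes were called. Across mice within groups, Fos had r = 0.28 with the heat shock list (adjusted p = 0.450) and r = 0.22 with the cytokine list (adjusted p = 0.450). Within the ages these were 0.39 and 0.13 for the heat shock list, and -0.19 and 0.56 for the cytokine list, so that the last differed in sign between 7 and 10 months. The part of the dissociation in the levels or the differences of the immediate-early genes was not tested.

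**Figure D5:**
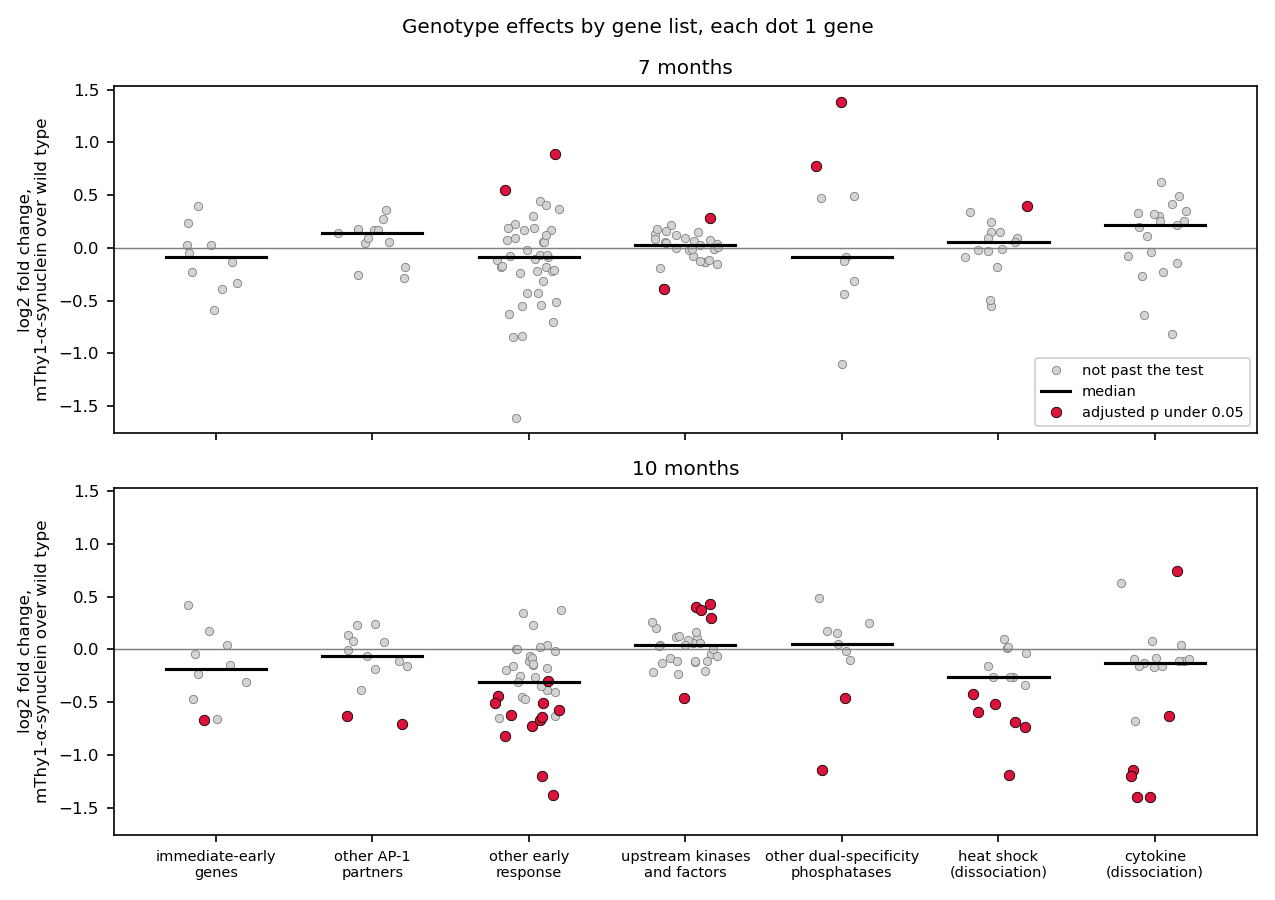
Log2 fold change of mThy1-α-synuclein over wild-type mice (y axis) at 7 months (upper panel) and 10 months (lower panel) for the genes of 7 lists (x axis), 1 dot per gene, red where the adjusted p was under 0.05, with the list's median as a line. At 10 months the red dots lie mostly below 0, with 12 of 39 other early response genes and 1 of the 10 immediate-early genes, where 7.67% of all genes were called.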

How the data were processed

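Poly(A) RNA of microglia from 20 mice was sequenced in 1 run. Per the study's methods, the authors trimmed reads with Trim Galore 0.6.7, aligned them to mm10 with HISAT2 2.2.1 and counted them with featureCounts; the annotation and strand setting are not given in the sources used here. The deposited values are a normalized signal: gene counts that the authors divided by DESeq2 1.44.0 size factors, within each age. Dividing by the smallest step gave whole reads for 100% of values within 0.1. The 20 single files equal the table.

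From these, log2(value + 1) was tested with limma 3.58.1 (trend, robust; R 4.3.3) on the genes that reached 10 in 4 or more mice (5 or more at 10 months), with Benjamini-Hochberg adjustment over all genes tested and a cutoff of 0.05. Fold changes are on that scale. Age contrasts used recovered reads with size factors over all 20 mice. edgeR 4.0.16 and DESeq2 1.42.0 on the reads, pseudocounts of 0.5 and 5, no filter, TMM scaling, a replicate block, each mouse left out and a marker covariate were alternatives. The scripts were tested on simulated data. Covariation used 100000 permutations within groups. Named genes were the members, up to 5 called genes a list and comparison by smallest p, the 5 genes most like the members' mean, and Thy1; Srf, Nab1, Nab2, Hspa1a and Hspa1b were named after their values were seen. The 17 lists, of which the members are 1 (231 of 233 genes found), were chosen with earlier results of these data known. Replicates were separate mice, and none agreed within sampling noise. Precision rests on the number of mice.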

Additional observations from a re-analysis of the deposited data

How the results depend on the processing

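The number of immediate-early genes called at 7 months (0) became 1 with the replicate block, and 0 to 1 when a mouse was left out, the 1 being Fosb in both cases. At 10 months (1 gene) it became 3 with DESeq2 on recovered reads (Fos, Fosb and Dusp1), 2 with the replicate block, 0 with the marker covariate, and 0 to 4 when a mouse was left out. In the mean of both ages (1 gene) it became 2 with DESeq2, 2 with the replicate block, 0 with the covariate, and 1 to 3 without a mouse. The calls of all genes moved too. Without a mouse they ran from 282 to 858 at 7 months, 497 to 1235 at 10 months and 597 to 1304 in the mean. With the covariate they were 32 at 10 months and 417 in the mean, beside 1045 and 1000. Same-numbered mice did not deviate together (r -0.13 to 0.10), so the numbers are taken as names only; the block moved the genes called at 7 months from 684 to 414. DESeq2 called 1158 of all genes at 7 months and 1695 at 10 months, and edgeR 695 and 1080, beside 684 and 1045. Of single members, 8 values changed sign outside the mice left out, none of them called and the largest at -0.16. With the block these were Jun (-0.16) and Atf3 (-0.069) at 7 months and Jun (-0.059) in the mean. With the covariate they were Junb (0.021) at 7 months, Junb (0.051), Jund (0.093) and Atf3 (0.013) at 10 months and Atf3 (0.0097) in the mean. Without a mouse in turn, the values that changed sign ran at 7 months from -0.054 to 0.14 for Jun, -0.14 to 0.040 for Junb and -0.030 to 0.098 for Atf3, at 10 months from -0.039 to 0.10 for Jun and -0.12 to 0.0029 for Jund, in the mean from -0.0068 to 0.094 for Jun, and with age in transgenic mice from -0.21 to 0.036 for Fosb.

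Normalizing each age apart, as deposited, moved the genes called between the ages in wild-type mice from 1441 to 2188 and in transgenic mice from 131 to 830; no member was called in either. Whether Fos and Dusp1 were called lower at 10 months depended on the tool. With the block, 2 heat shock genes were called lower at 7 months. The cause of these changes was not tested.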
